A study of Mus musculus with 39 samples.

Results

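The 10 genes Fasn, Acaca, Acacb, Acly, Scd1, Elovl6, Srebf1, Mlxipl, Thrsp and Gpam, which carry out or drive de novo fatty acid synthesis and the first step of triglyceride synthesis, were taken by symbol from the 45706 genes listed in the count file of every library. The rule used names alone, but the genes were picked with earlier results of these data known. RNA-seq read counts were available for 39 libraries in 12 groups, each from 1 male C57BL/6 mouse on chow, 10 to 16 weeks old, and the question of the study was how loss of E47, a splice form of the E protein gene Tcf3, alters the metabolic response to glucocorticoids. Livers came from E47-/- mice without treatment (n = 6), after 3 weeks of corticosterone (Cort, 100 µg/ml, n = 4) and after 3 weeks of dexamethasone (Dex, 10 µg/ml, n = 3) in the drinking water. Wild-type littermates gave 5, 4 and 2 livers under the same conditions. Mice treated with Dex for 3 weeks also gave epididymal white adipose tissue (WAT, 2 E47-/- and 2 wild type) and quadriceps muscle (3 E47-/- and 2 wild type). By their animal numbers, 3 of the muscle donors gave a Dex liver too and the 4 WAT donors gave no other library. In the sixth experiment Dex was injected at 1 mg/kg and livers were collected 1 h later from 3 Albcre/+;E47fl/fl mice, in which albumin-driven Cre acts in hepatocytes and other liver cells keep E47, and from 3 controls without Cre, 1 of them Alb+/+;E47fl/+ and 2 Alb+/+;E47fl/fl. Mice treated for 3 weeks were killed after a glucose tolerance test, which follows an overnight fast, whereas the acutely injected and the untreated mice are described with free access to food.

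De novo lipogenesis turns surplus carbohydrate into fat, chiefly in liver and adipose tissue. Acly releases acetyl-CoA from citrate in the cytosol, the acetyl-CoA carboxylases encoded by Acaca and Acacb make malonyl-CoA, and fatty acid synthase (Fasn) builds palmitate from it. Elovl6 lengthens palmitate, Scd1 introduces the double bond that gives oleate and palmitoleate, and the mitochondrial acyltransferase encoded by Gpam attaches the first fatty acid to glycerol 3-phosphate. Malonyl-CoA made by Acacb at the mitochondrial surface also restrains the entry of fatty acids into mitochondria, which is why this isoform is prominent in muscle. SREBP-1c, a product of Srebf1, is raised by insulin and ChREBP, encoded by Mlxipl, responds to glucose metabolites. Both switch on the enzymes, and Thrsp (Spot 14) is a small protein that promotes lipogenesis in liver and fat.

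E47 binds DNA at E-boxes, CANNTG, so the 250 bases before the RefSeq start sites (GRCm38.p6) were searched for this motif on both strands, which for a palindrome give the same places. Promoters were listed for 9 of the 10 genes, with 13 start sites in all. The promoters of the 3 members with the smallest unadjusted p between the genotypes after Cort are shown 5′ to 3′ in the direction of transcription, with E-boxes in capitals. They are the start of Acacb at chr5:114165268-114165517 (plus strand, inside the annotated gene, so other starts exist), the distal start of Gpam at chr19:55127239-55127488 (minus strand) and both starts of Mlxipl, at chr5:135089640-135089889 (the first base of the gene) and chr5:135106641-135106890 (plus strand, inside the gene).
Acacb: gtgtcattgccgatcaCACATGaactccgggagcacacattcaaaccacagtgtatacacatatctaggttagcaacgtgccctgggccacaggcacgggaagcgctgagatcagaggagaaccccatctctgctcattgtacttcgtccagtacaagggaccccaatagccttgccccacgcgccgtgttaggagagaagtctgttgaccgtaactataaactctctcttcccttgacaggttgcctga
Gpam: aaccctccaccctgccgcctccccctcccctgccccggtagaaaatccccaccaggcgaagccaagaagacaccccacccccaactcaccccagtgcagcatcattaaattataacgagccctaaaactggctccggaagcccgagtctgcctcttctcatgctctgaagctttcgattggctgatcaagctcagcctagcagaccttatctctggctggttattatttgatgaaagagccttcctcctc
Mlxipl first start: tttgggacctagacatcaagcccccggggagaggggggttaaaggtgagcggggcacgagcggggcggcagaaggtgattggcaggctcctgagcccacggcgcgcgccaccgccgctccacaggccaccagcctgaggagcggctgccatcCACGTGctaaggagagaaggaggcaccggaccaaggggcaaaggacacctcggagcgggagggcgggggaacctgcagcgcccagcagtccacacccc
Mlxipl internal start: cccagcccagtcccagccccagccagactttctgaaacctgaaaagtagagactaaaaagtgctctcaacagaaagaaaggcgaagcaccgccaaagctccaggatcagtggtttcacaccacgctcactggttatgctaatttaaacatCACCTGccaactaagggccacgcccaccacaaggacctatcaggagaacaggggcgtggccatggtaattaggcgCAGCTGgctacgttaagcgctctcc
The Acacb window held 1 E-box, beginning 234 bases before the start, and the Gpam window held none. The first Mlxipl window held CACGTG at 98 bases, the form of E-box that SREBP, ChREBP and USF proteins are known to read, and the internal one held CACCTG at 100 and CAGCTG at 25 bases, the forms preferred by E proteins. An E-box was present in 8 of the 13 promoters and in 66.2% of all 32851 promoters of the same length. CACGTG, a form of the same motif, stood in 1 of 13 and in 6.02% of all. The half-site TGTTCT of the glucocorticoid receptor was found in the promoters of Acaca and Mlxipl (2 of 13, 16.1% of all). These are matches of letters in a short window and no binding was measured here.

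Library totals ran from 15.51 to 54.56 M counts on genes (M, 1000000), lowest in the acute and Dex livers, and the lowest member, Elovl6 in muscle, still rested on 27 to 67 counts per library. Tcf3 counts pool E12 and E47 transcripts and overlapped between the genotypes in each of the 6 experiments (log2 differences -0.15 to 0.23, smallest unadjusted p in edgeR 0.211), so they do not check the deletion. Hepatocyte markers summed to 99574 to 181910.2 CPM (reads per 1000000 counts on genes) in the livers and adipocyte markers to 29303 to 33404 CPM in WAT. Several libraries stood apart. Skeletal muscle markers (10 genes) summed to 310.1 and 373 CPM in untreated E47-/- replicate 2 and wild-type replicate 4, against at most 94.8 CPM in the other 9 untreated livers. Wild-type muscle replicate 2 held hepatocyte RNA (10 markers, summed level 231 CPM, against 1.21 to 14.9 in the other 4 muscles). The animal numbers in the file names fall into ranges, and in the Cort livers the 3 mice of the lower range (E47-/- replicates 1 and 2, wild-type replicate 1) had 56.3 to 78.8 CPM of the glucocorticoid receptor target Fkbp5, against 288 or more in the other 5, and 0.944 to 1.14 CPM of the muscle markers, against 161 to 223. E47-/- Dex liver replicate 3 had 83.5 CPM of Fkbp5 against 373 to 637 in the other Dex livers. Untreated livers had 19.6 to 119 CPM of Fkbp5, a range that includes this Dex liver and the 3 Cort livers. Of 2 further receptor targets, Tsc22d3 was 46 to 61.4 CPM in those 3 Cort livers and 44.6 to 235 in untreated ones. Tat was 538 to 833 CPM against 964 to 3149. These livers are counted as treated in all comparisons below. Among the untreated livers, 3 of one number range (E47-/- replicates 5 and 6, wild-type replicate 5) were low in Scd1, at 1680.1 to 3010.3 CPM, while the other 8 had 7502 to 12849. Elovl6 was also lower in these 3 (59.5 to 121 CPM against 126 to 387). Fasn (183 to 304 CPM), Acly (162 to 267), Acaca (67.3 to 101), Acacb (50.8 to 85.8) and Thrsp (292 to 599) reached their lowest untreated values there but overlapped with the others. Srebf1, Mlxipl and Gpam lay within the range of the others.

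Levels per kilobase of exon, the scale on which genes can be compared, put Scd1 first in 11 of 12 groups and Acacb first in wild-type muscle. In untreated wild-type liver Scd1 stood at 1639.6 CPM per kb, Thrsp at 450.3, Acly at 78.5 and Fasn at 74.3, with Acacb at 12.1 and Acaca lowest at 7.01. Dex-treated wild-type WAT had 4369 CPM per kb of Scd1, 319 of Thrsp and 85 of Fasn, but 2.97 of Gpam, the lowest of the 10 there. Wild-type muscle was ordered differently, with Acacb at 65.4 CPM per kb, Gpam at 26.5, Scd1 at 21.1 and Elovl6 at 0.101. Using the longest transcript in place of all exons raised the values of Acaca most, from 7.01 to 12.6 CPM per kb in untreated wild-type liver.

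Each gene was then followed across the 12 groups in CPM, on 1 scale for all 39 libraries. The ratio of the highest to the lowest group mean was 306 for Elovl6, 259.6 for Scd1, 159 for Thrsp, 44.9 for Fasn, 22.2 for Acly, 20.8 for Acacb, 17.8 for Acaca, 14.7 for Srebf1, 11.4 for Gpam and 5.25 for Mlxipl. Thus the desaturase, the elongase and Thrsp covered the widest range of levels and ChREBP the narrowest. Neighbours in the order of group means mostly could not be separated, since between 6 (Elovl6) and 10 (Acly and Mlxipl) of the 11 neighbouring pairs had overlapping libraries. Acacb was the only member with its 2 highest group means in muscle (668 ± 40.4 CPM, SD, n = 3, in E47-/- and 630.0 ± 42, n = 2, in wild type), and Gpam had its 2 lowest in WAT (19.9 ± 3.48 and 19.8 ± 0.122, n = 2 each).

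**Figure D1:**
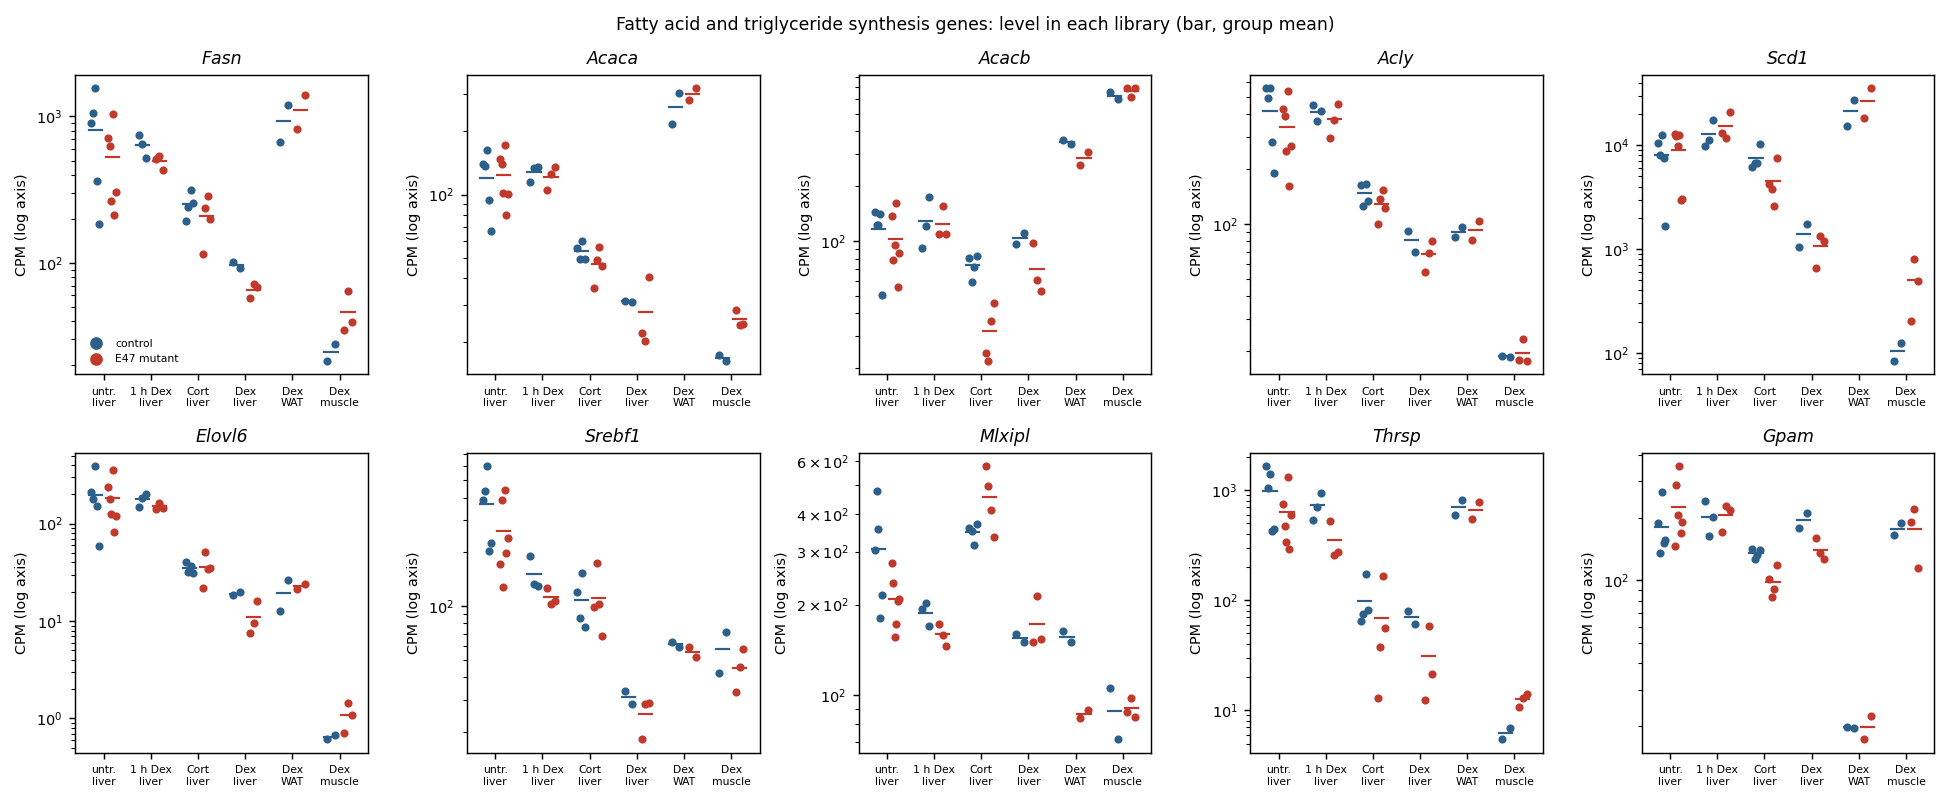
Level of each gene in CPM (log axis) in every library of the 6 experiments, control mice in blue and E47 mutant mice in red, with a bar at each group mean. Scd1, Fasn, Acaca and Thrsp were high in WAT and Acacb in muscle, and 9 of the 10 genes had lower means in Dex-treated than in untreated livers of both genotypes.

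The genotypes were compared within each experiment with edgeR's quasi-likelihood test and Benjamini-Hochberg adjustment over all genes tested, and fold changes are given as log2 of mutant over control ± SE. At an adjusted p of 0.05 none of the 10 genes was called in any of the 6 comparisons. Few genes of any kind were, namely 0.00752% of genes in Dex liver, 0.0274% in Cort liver, 0.0288% in untreated liver, 0.0134% in Dex muscle and 0 in acute Dex liver and WAT. The differences below therefore carry unadjusted p-values, and in bulk tissue fewer cells of a type cannot be told apart from less RNA per cell.

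In Cort-treated liver Acacb had the smallest p of the 10. Acacb stood at 80.7, 59.4, 72.2 and 83.1 CPM in wild type and at 24.2, 22, 36.4 and 45.7 CPM in E47-/-. The groups did not overlap, and the lower pair of E47-/- values came from the lower range of animal numbers. The log2 fold change was -1.21 ± 0.23 (unadjusted p = 0.000549, edgeR adjusted p = 0.189), a 2.32-fold lower level. All 10 skeletal muscle markers were also lower in these E47-/- livers (median log2 fold change -0.71, none at an unadjusted p under 0.05), and Acacb is high in muscle. Within the higher range of animal numbers the marker sums were 161 and 189 CPM in E47-/- and 173 to 223 in wild type. In the lower range they were 0.944 CPM in wild type and 1.05 CPM at the lowest in E47-/-, with Acacb at 80.7 against 24.2 and 22 CPM. The part of muscle RNA in the Acacb difference was not tested.

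Gpam gave the other separated pair of groups, with 141, 127, 132 and 140.2 CPM in wild type and 102, 83.3, 90.6 and 118 CPM in E47-/-. Its log2 fold change was -0.47 ± 0.11 (unadjusted p = 0.00237, edgeR adjusted p = 0.246). Within the lower range of animal numbers (2 E47-/- against 1 wild type) the log2 ratio of means was -1.80 for Acacb and -0.61 for Gpam. It was -0.80 and -0.35 in the higher range (2 against 3). Since the groups did not overlap, a lower mutant mean in each range follows from that and adds nothing to it. DESeq2, which called 1.05% of all genes here, gave adjusted p-values of 0.000127 for Acacb and 0.0206 for Gpam. Over all alternatives, replicates left out in turn included, the adjusted p ran from 0.000127 to 0.413 for Acacb and from 0.0206 to 0.654 for Gpam.

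Scd1 in Cort liver was 6194, 6715, 6699.9 and 10284 CPM in wild type against 4222, 3816, 2615 and 7558 CPM in E47-/- (-0.73 ± 0.31, unadjusted p = 0.0459). E47-/- replicate 4 lay above 3 of the 4 wild-type libraries. Mlxipl went the other way, with 359, 352, 315 and 371 CPM in wild type and 576, 495, 414 and 336 CPM in E47-/- (0.37 ± 0.16, unadjusted p = 0.0429). The log2 ratio of Mlxipl was 0.58 in the lower and 0.12 in the higher range of animal numbers. All its E47-/- libraries but replicate 4 exceeded every wild-type library.

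The remaining members had larger unadjusted p-values. Fasn was 192, 242, 315 and 256 CPM in wild type and 115, 238, 288 and 198 CPM in E47-/-, a log2 difference of -0.27 ± 0.26 (unadjusted p = 0.319). Acaca (-0.21 ± 0.13), Acly (-0.21 ± 0.15), Elovl6 (0.03 ± 0.22) and Srebf1 (0.02 ± 0.30) had overlapping groups, and unadjusted p-values were from 0.14 to 0.944. Thrsp spread over 13 to 172 CPM in the 8 livers with a log2 genotype ratio of -1.36 in the lower range of animal numbers and 0.03 in the higher. Of the 10 members 3 were lower and 1 higher at an unadjusted p under 0.05, where 6.06% and 3.78% of all genes were, and 2 had separated groups, lower, against 3.75% of all genes. The median log2 difference of the members was -0.24 and that of all genes 0.00.

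**Figure D2:**
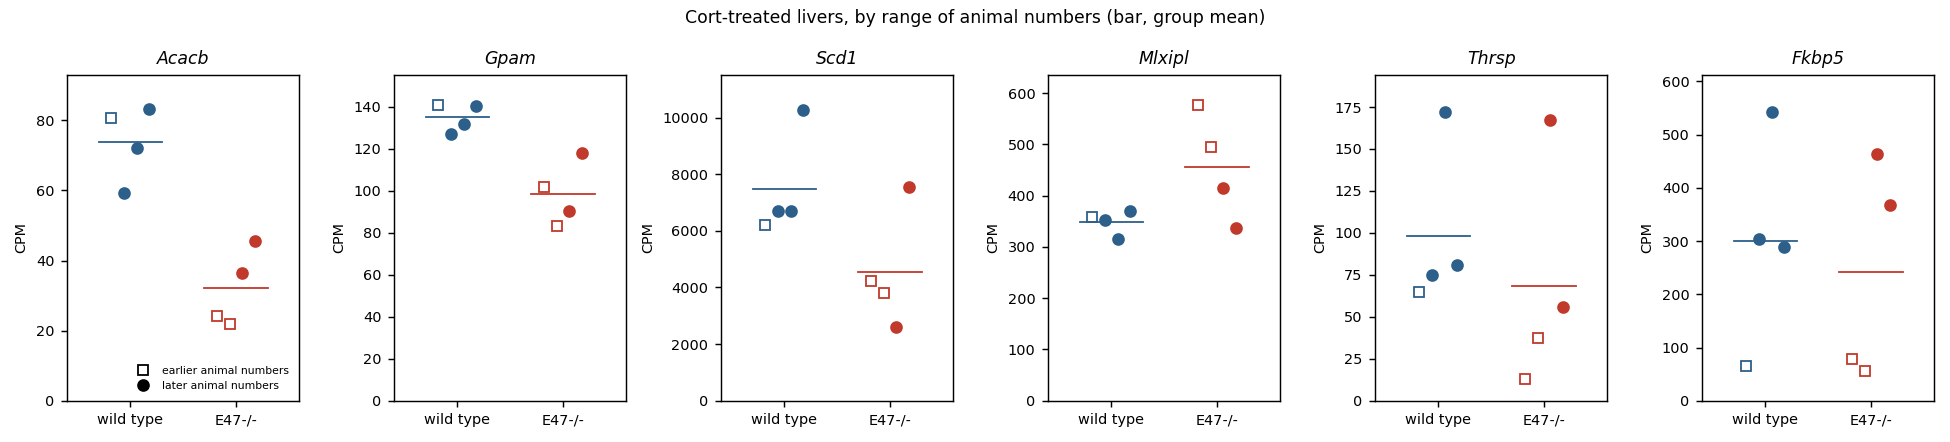
CPM of Acacb, Gpam, Scd1, Mlxipl, Thrsp and the glucocorticoid receptor target Fkbp5 in the 4 wild-type and 4 E47-/- livers after 3 weeks of Cort, with bars at the group means and squares for the lower range of animal numbers. Acacb and Gpam separate the genotypes, whereas Fkbp5 separates the animal-number ranges (56.3 to 78.8 CPM against 288 CPM or more). Untreated livers, not drawn, had 19.6 to 119 CPM of Fkbp5.

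In Dex-treated liver the enzymes leaned the same way, and 9 of 10 log2 differences were below 0 (49.4% of all genes), with a median of -0.42 against 0.00 for all genes. Fasn was 101 and 92.6 CPM in wild type and 58, 71.2 and 67.9 CPM in E47-/- (-0.56 ± 0.14, unadjusted p = 0.00531, edgeR adjusted p = 0.999). Elovl6 was 18.4 and 20 CPM against 7.63, 9.59 and 16.2 (-0.79 ± 0.30, unadjusted p = 0.0341). Gpam was 178 and 210.4 CPM against 159, 135 and 127 (-0.46 ± 0.16, unadjusted p = 0.0246). These 3 genes and Thrsp (79.5 and 61.4 against 12.4, 58.9 and 21.4 CPM, -1.18 ± 0.58, unadjusted p = 0.085) had separated groups, 4 of 10 where 7.62% of all genes did so in that direction. At an unadjusted p under 0.05, 3 members and 1.91% of all genes were lower.

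Within the ranges of animal numbers the log2 ratios were -0.65 and -0.45 for Fasn, -1.09 and -0.30 for Elovl6, -0.28 and -0.72 for Gpam and -1.16 and -1.52 for Thrsp. Their shared sign follows from the separated groups and adds nothing to that separation. Of the members with overlapping groups, Acaca (-0.57 and 0.41), Acly (-0.57 and 0.20) and Srebf1 (-0.53 and 0.03) changed sign between the ranges. Acacb (-0.29 and -1.06), Scd1 (-0.05 and -0.54) and Mlxipl (0.19 and 0.04) kept theirs. Acacb was 104 ± 10.7 CPM (SD, n = 2) in wild type and 97.1, 60.7 and 53.2 CPM in E47-/- (-0.55 ± 0.26, unadjusted p = 0.0765), so E47-/- replicate 1 lay inside the wild-type range. Mlxipl was the exception in sign (0.16 ± 0.19). Clock genes of the Dbp and Per phase also differed between these livers. The output gene Dbp was 1.42 to 7.92 CPM in E47-/- and 13.4 to 15.7 CPM in wild type, the summed level of 9 genes of this phase was 297 to 421 against 457 to 495 CPM, and 3 of the 9 were lower at an unadjusted p under 0.05. The summed level of 5 clock genes of the Bmal1 (Arntl) phase overlapped, at 183 to 249 against 168 to 221 CPM. The part of the clock genes in the lipogenic differences was not tested.

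At 1 h after Dex the smallest p-values between liver-specific mutants and controls were those of Thrsp and Srebf1. Thrsp was 532, 707 and 936 CPM in controls and 352 ± 152 CPM (SD, n = 3) in mutants, whose replicates 2 and 3 had 255 and 273 CPM (-1.03 ± 0.31, unadjusted p = 0.0093, edgeR adjusted p = 1). The remaining mutant and the lowest control were almost level, and which came first changed with the scaling. Srebf1 was 189, 133 and 129 CPM in controls and 126, 103 and 106 CPM in mutants (-0.41 ± 0.15, unadjusted p = 0.0259), and it was the 1 member whose groups were separated on the scale of this experiment alone, where 4.13% of all genes were. Its highest control was the Alb+/+;E47fl/+ animal. Fasn followed with 747, 644 and 524 CPM in controls against 516, 534 and 428 in mutants (-0.36 ± 0.14, unadjusted p = 0.0336), and Mlxipl with -0.23 ± 0.10 (unadjusted p = 0.0479). In all 4 members were lower at this level, against 1.92% of all genes, and none was higher. In the same livers 3 of 9 fasting genes and 2 of 9 glucocorticoid receptor targets were higher at this level (1.78% of all genes were), with summed levels of 8489 to 10021 CPM in mutants and 7874 to 9053 in controls for the first list and of 8376 to 9438 against 7345 to 8496 for the second. Their part in the lipogenic differences was not tested. Acaca (-0.06 ± 0.12), Acacb (-0.04 ± 0.24), Acly (-0.12 ± 0.16), Scd1 (0.27 ± 0.29) and Gpam (0.04 ± 0.16) had overlapping groups.

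Untreated livers varied widely within each genotype. Fasn had a lowest, median and highest value of 211, 467 and 1047 CPM in the 6 E47-/- livers, against 899.6, 1062, 1560.4, 361 and 183 CPM in the 5 wild types (-0.63 ± 0.53, unadjusted p = 0.259). Its log2 ratio was -1.31 and -0.33 in 2 of the 4 animal-number ranges that held both genotypes and 0.86 and 0.49 in the other two, so its sign depended on the range. Mlxipl was 181 to 478 CPM in wild type (307 ± 118, SD, n = 5) and 156 to 276 CPM in E47-/- (209 ± 43, n = 6) (-0.56 ± 0.23, unadjusted p = 0.0322), with log2 ratios within ranges of -0.60, -0.13, -0.05 and -0.14. It was the 1 member lower at an unadjusted p under 0.05, where 2.21% of all genes were, and no member had separated groups (0.424% of all genes did). The others lay between -0.66 ± 0.44 (Thrsp) and 0.32 ± 0.24 (Gpam).

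In WAT the smallest p of the 10 was that of Mlxipl, at 163 and 150.4 CPM in wild type and 84.1 and 89.4 CPM in E47-/-. The groups were well apart, which fixes the sign within the 2 ranges of animal numbers, and the log2 ratios there were -0.95 and -0.75. The log2 fold change was -0.86 ± 0.12 (unadjusted p = 0.000645, edgeR adjusted p = 0.955). DESeq2 gave an adjusted p of 1.3e-05 (it called 0.144% of all genes), and edgeR one of 0.0289 without E47-/- replicate 3, a fit that called 333 genes, while all alternatives together ran from 1.3e-05 to 1. Among the members only Mlxipl had an unadjusted p under 0.05 here (2.23% of all genes were lower at that level). With 2 libraries a group, 17.2% of all genes had separated groups in the lower direction, and so did 2 of the 10 members, Mlxipl and Acacb. Acacb was 343 and 359.8 CPM in wild type and 263 and 310.2 CPM in E47-/- (-0.31 ± 0.14, unadjusted p = 0.0852). Scd1 (15162 to 35500.5 CPM over the 4 libraries) and Fasn (668 to 1400.2 CPM) differed more between the animal-number ranges than between the genotypes. Other lists moved in the same WAT. All 7 macrophage markers tested were above 0 (median log2 0.65, summed level of the 8 listed 1015 and 499 CPM in E47-/- against 558 and 474), none at an unadjusted p under 0.05. All 9 clock genes of the Dbp and Per phase (median -0.44, 241 and 325 CPM against 350.3 and 401) and all 9 glucocorticoid receptor targets (median -0.37, 1538 and 2342 CPM against 2793 and 2861) were below 0, and 2 of each list were lower at that level. Their part in the Mlxipl difference was not tested.

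Muscle gave the opposite sign. Thrsp was 5.51 and 6.86 CPM in wild type and 10.8, 13 and 14.2 CPM in E47-/- (1.05 ± 0.15, unadjusted p = 0.000285, edgeR adjusted p = 0.34). Scd1 was 84.1 and 123 CPM against 202, 805 and 491 CPM (2.28 ± 0.54, unadjusted p = 0.0047), Acaca 17.4 and 16.3 against 28.3, 24.1 and 24.4 CPM (0.62 ± 0.14, unadjusted p = 0.00317) and Fasn 21.5 and 28 against 35, 64.7 and 39.4 CPM (0.92 ± 0.27, unadjusted p = 0.0127). Together with Elovl6 (0.75 ± 0.36), 5 members had separated groups, higher in E47-/-, where 9.5% of all genes did. Of the 10, 4 were higher at an unadjusted p under 0.05, against 2.91% of all genes. The alternatives gave Thrsp an adjusted p between 5.3e-05 and 0.877. Within the ranges of animal numbers the log2 ratios were 1.11 and 1.05 for Thrsp, 1.21 and 0.50 for Fasn and 0.59 and 0.58 for Acaca. Their shared sign follows from the separated groups and adds nothing to that separation. Of the members with overlapping groups, Gpam (0.32 and -0.71), Mlxipl (-0.19 and 0.24), Acly (0.13 and -0.07) and Acacb (-0.01 and 0.20) changed sign between the ranges. Srebf1 (-0.12 and -0.33) did not.

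Adipocyte RNA was higher in the same E47-/- muscles. The summed level of 10 adipocyte markers was 603, 584 and 722 CPM in E47-/- and 186 and 295 CPM in wild type, and each of the 10 was higher at an unadjusted p under 0.05, with a median log2 fold change of 2.24. Adiponectin (Adipoq) was 45.3, 57.6 and 66.1 CPM in E47-/- against 4.91 and 19.7, and perilipin 1 (Plin1) was 11.1 to 16.8 against 1.04 to 3.61. In WAT, where the markers summed to 29303 to 33404 CPM, Scd1, Thrsp, Fasn, Acaca, Acly and Elovl6 had higher means than in muscle, with Acly at 90.6 CPM in wild-type WAT and 18.6 in wild-type muscle. Acacb (0.10 ± 0.13), Gpam (0.01 ± 0.27), Mlxipl (0.04 ± 0.19) and Acly (0.09 ± 0.15), had overlapping groups in muscle. The part of the adipocyte RNA in the differences of Thrsp, Scd1, Acaca and Fasn was not tested.

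**Figure D3:**
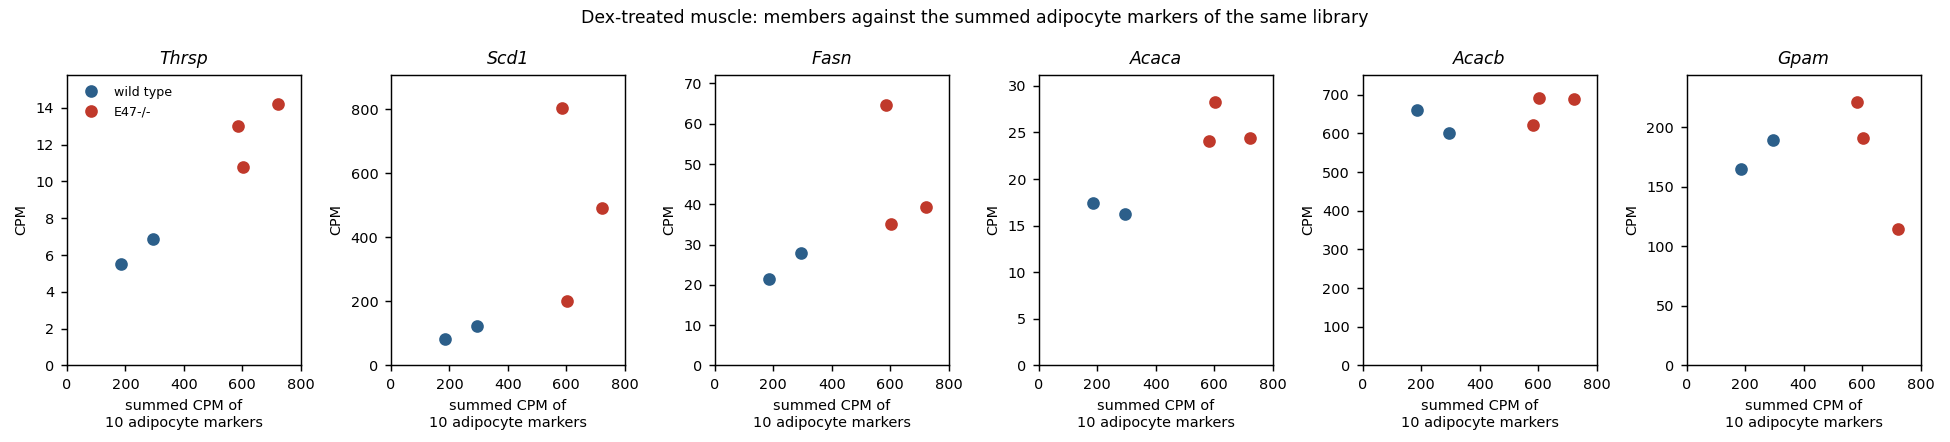
CPM of 6 of the 10 genes (vertical axes) against the summed CPM of 10 adipocyte markers (horizontal axes) in the same 5 Dex-treated muscle libraries, wild type in blue and E47-/- in red. Thrsp, Scd1, Fasn and Acaca were higher in the 3 libraries with 584 to 722 CPM of adipocyte markers than in the 2 with 186 and 295, whereas Acacb and Gpam overlapped.

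**Figure D4:**
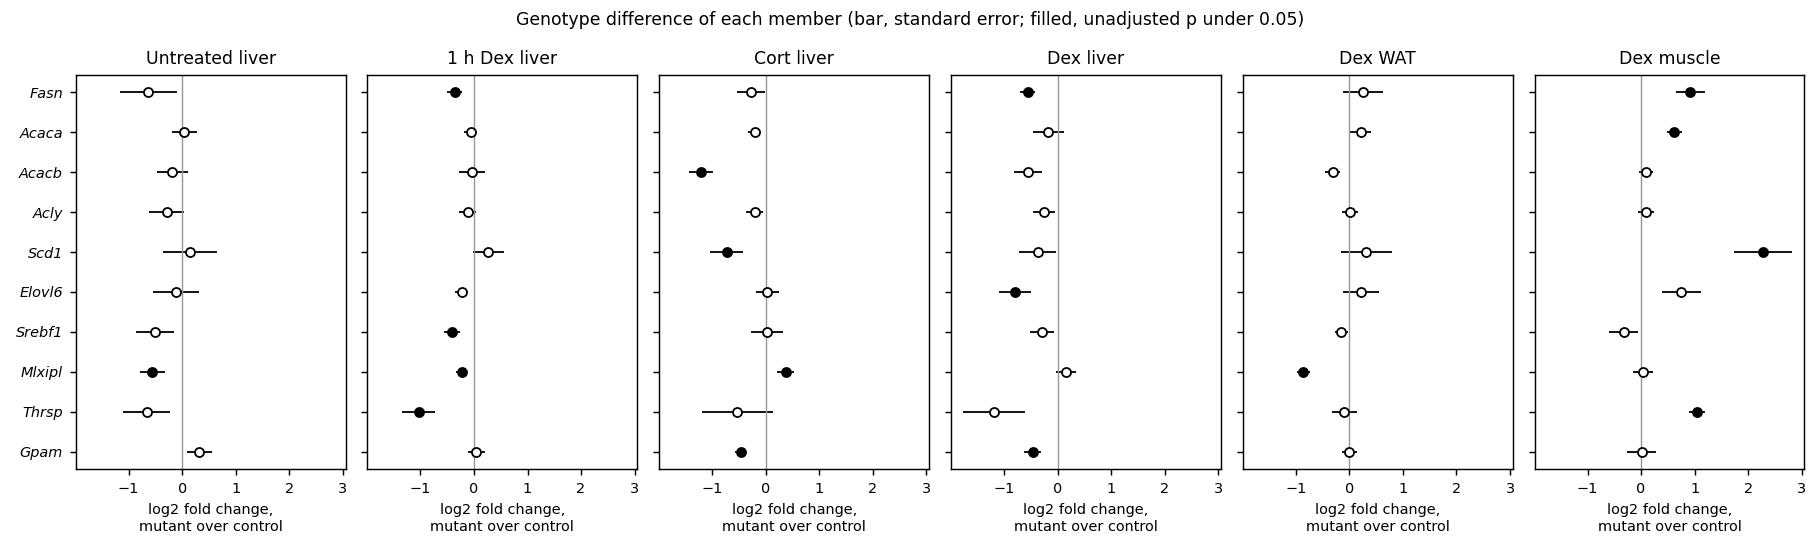
Log2 fold change of each gene, mutant over control, in the 6 experiments, with bars for 1 SE and filled points for an unadjusted p under 0.05. Points lie mostly left of 0 in the livers and right of 0 in muscle, and no gene reached an adjusted p of 0.05.

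Whether the genotype difference itself changed between conditions was tested in joint fits of the 24 global E47-/- and wild-type livers and of the 14 Dex libraries. The second fit takes its libraries as independent, although 3 mice gave both a liver and a muscle library. No member was called at an adjusted p of 0.05, where 0.00626% of genes were for Cort against untreated livers and 0 for the 4 other differences. Between Cort and untreated livers the log2 genotype difference shifted by 0.94 ± 0.31 for Mlxipl, by -0.77 ± 0.30 for Gpam and by -1.01 ± 0.42 for Acacb (unadjusted p from edgeR 0.00609, 0.016 and 0.0236). Those 3 of 10 stand against 6.42% of all genes at that level. Over all alternatives the Mlxipl shift went down to 0.49, whereas leaving replicates out took it no lower than 0.72. The weakest shifts of Gpam and Acacb over the alternatives were -0.60 and -0.82. The untreated Mlxipl difference includes wild-type replicate 2, the highest of its group at 478 CPM, from an animal-number range without E47-/- mice. Gpam also shifted between Dex and untreated livers (-0.78 ± 0.35, unadjusted p = 0.0339), where 3.75% of all genes did. Between Dex and Cort livers no member had an unadjusted p under 0.05 (2.73% of all genes did). Dex liver and Dex muscle differed in the genotype effect on Scd1 (-2.64 ± 0.84), Thrsp (-2.21 ± 0.68), Elovl6 (-1.53 ± 0.56) and Fasn (-1.46 ± 0.45), with unadjusted p-values of 0.0087, 0.00713, 0.0185 and 0.00676, 4 of 10 where 4.6% of all genes were. Liver and WAT differed in Mlxipl (1.01 ± 0.28, unadjusted p = 0.00353), against 3.27% of all genes. The contrasts of Cort and of Dex with untreated livers share the untreated livers.

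The largest differences in liver were between treated and untreated mice. After 3 weeks of Dex, 8 members fell in wild-type livers and 8 in E47-/- livers at an edgeR adjusted p under 0.05, where 15.9% and 18.6% of all genes fell. After Cort 6 fell in wild type and 8 in E47-/-, against 16.2% and 18.3%, and Mlxipl rose in E47-/- (19.7% of all genes rose). Treatment coincided with experiment, library preparation, the overnight fast before the glucose test and time of killing, and these cannot be told apart. The clock gene Arntl was at 17.6 to 36.1 CPM in Dex livers and 1.97 to 13.3 in Cort livers, against 0.587 to 6.37 in untreated ones. The 9 fasting genes summed to 14707 to 21540.0 CPM in Dex, 8195 to 13334 in Cort and 6318 to 9461 in untreated livers. Among them Igfbp1 was 967 to 2072, 7.85 to 42.4 and 3.97 to 105 CPM in the same order. Cyp4a14 was 3054 to 8879, 2400.3 to 5032 and 7.39 to 349 CPM. The part of fasting in the treatment differences was not tested.

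Srebf1 was among the genes that fell furthest with Dex, from 370.4 ± 162 CPM (SD, n = 5) in untreated to 30.9 ± 3.76 (n = 2) in treated wild types, a log2 change of -3.58 ± 0.55 (edgeR adjusted p = 5.0e-05). Cort changed it by -1.80 ± 0.37, to 108 ± 34.1 CPM (n = 4, edgeR adjusted p = 0.00108). In E47-/- livers the changes were -3.37 ± 0.45 with Dex and -1.26 ± 0.35 with Cort. Mlxipl did not follow. It fell in wild type with Dex (-0.98 ± 0.29, edgeR adjusted p = 0.0142, but 0.0705 and 0.119 when wild-type Dex replicate 1 or 2 was left out), and was not called in E47-/- (-0.27 ± 0.24). With Cort it was 0.16 ± 0.22 in wild type and rose by 1.10 ± 0.21 in E47-/- (edgeR adjusted p = 0.00039).

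The enzymes of palmitate synthesis fell together. In wild-type livers Dex changed Fasn by -3.06 ± 0.71, Acly by -2.35 ± 0.43 and Acaca by -1.94 ± 0.34 on the log2 scale (edgeR adjusted p = 0.00241, 0.000277 and 0.000178), and Cort changed them by -1.72 ± 0.50, -1.52 ± 0.31 and -1.18 ± 0.25 (0.0116, 0.000956 and 0.00119). In E47-/- livers Dex gave an 8.01-fold drop of Fasn, a 4.96-fold drop of Acly and a 4.45-fold drop of Acaca, and Cort gave 2.55-fold, 2.68-fold and 2.67-fold drops, all called. For Fasn with Cort in E47-/- the call rested on single libraries, since the adjusted p was from 0.0524 to 0.0949 without Cort E47-/- replicate 1, 2 or 4 or without untreated E47-/- replicate 1, 2 or 4.

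The estimated falls of Elovl6 and Thrsp were larger, but differences between genes were not tested. Elovl6 changed by -3.37 ± 0.62 and -4.04 ± 0.54 with Dex and by -2.52 ± 0.44 and -2.37 ± 0.43 with Cort, in wild-type and E47-/- livers. Thrsp changed by -3.80 ± 0.93 and -4.33 ± 0.80 with Dex, a 14-fold and 20.1-fold drop, and by -3.35 ± 0.67 and -3.21 ± 0.66 with Cort. The wild-type call of Thrsp with Dex was lost without wild-type Dex replicate 2 (adjusted p = 0.0639). Scd1 was called with Dex and not with Cort, and the difference between these changes was not tested. With Dex its change was -2.53 ± 0.69 in wild type (adjusted p = 0.00813, and 0.0986 without wild-type Dex replicate 1) and -3.06 ± 0.59 in E47-/-. With Cort its change of -0.12 ± 0.48 in wild type was not called, nor was that of -0.99 ± 0.47 in E47-/- (edgeR adjusted p = 0.104, and 0.0495 without untreated E47-/- replicate 5).

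Acacb and Gpam, the 2 members whose libraries did not overlap between the genotypes after Cort, were not called in either treated wild-type group. Acacb was -0.68 ± 0.30 with Cort (edgeR adjusted p = 0.0907, and 0.0209 without untreated wild-type replicate 5) and -0.16 ± 0.38 with Dex. Gpam was -0.44 ± 0.21 with Cort and 0.11 ± 0.26 with Dex. In E47-/- livers Cort changed Acacb by -1.69 ± 0.31 (edgeR adjusted p = 0.00023) and Gpam by -1.21 ± 0.21 (0.000177). Dex changed Gpam by -0.67 ± 0.23 (0.0269), a call lost without Dex E47-/- replicate 2 or 3 or untreated E47-/- replicate 2 or 4 (0.0629 to 0.109). A call in one genotype and not in the other does not show a difference, and the tests of that difference are those of the joint fit given above.

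**Figure D5:**
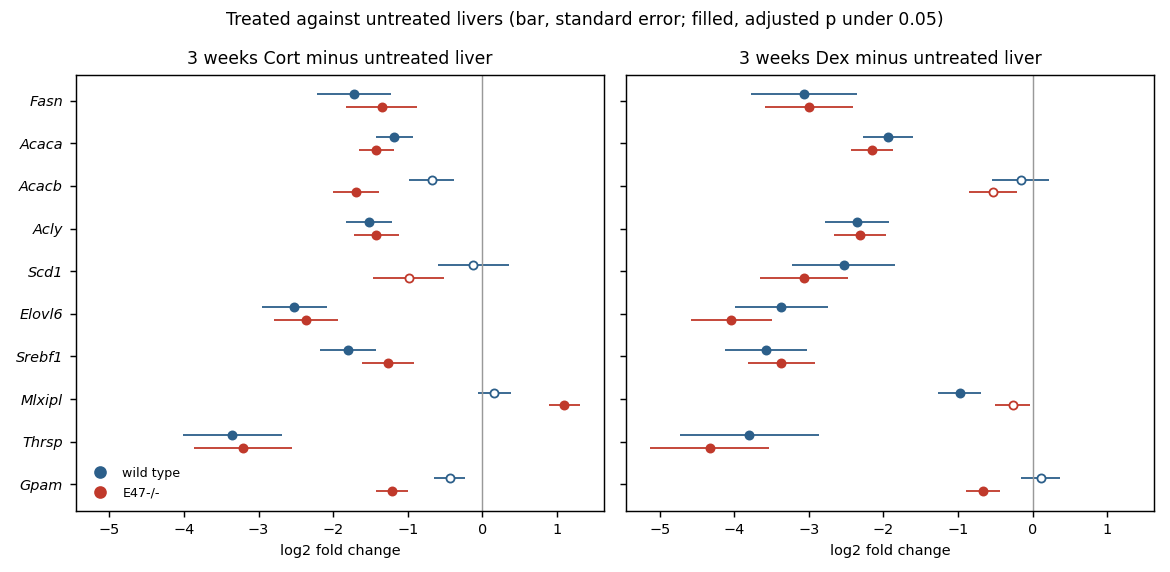
Log2 fold change of each gene in livers after 3 weeks of Cort (left) or Dex (right) over untreated livers, wild type in blue and E47-/- in red, with bars for 1 SE and filled points for an edgeR adjusted p under 0.05. Thrsp, Elovl6, Srebf1, Fasn, Acly and Acaca were lower in all 4 comparisons, and Mlxipl was called higher in 1 of the 4, Cort in E47-/- livers.

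Between tissues of Dex-treated mice, averaged over genotype, all 10 members differed between WAT and liver. Of these, 8 were higher in WAT, where 41.6% of all genes were. They were led by Scd1 (log2 difference 4.35 ± 0.49), Thrsp (3.91 ± 0.38), Fasn (3.72 ± 0.25) and Acaca (3.30 ± 0.20), with Acacb at 1.94 ± 0.17 and Srebf1 at 1.11 ± 0.20. Acly (0.35 ± 0.14) and Elovl6 (0.59 ± 0.25) were called with TMM scaling (edgeR adjusted p = 0.0336 and 0.0465) but not with RLE size factors (0.0901 and 0.0805), and leaving out 1 library raised the p to at most 0.134 for Acly and 0.299 for Elovl6. Gpam (-3.01 ± 0.19) and Mlxipl (-0.44 ± 0.14) were lower in WAT, where 33.8% of genes were, and Mlxipl reached an adjusted p of 0.0511 without wild-type WAT replicate 2. Muscle against liver was higher for Acacb (3.05 ± 0.18) and Srebf1 (0.99 ± 0.19), where 40.4% of all genes were. It was lower for Elovl6 (-3.99 ± 0.29), Scd1 (-2.30 ± 0.44), Thrsp (-2.28 ± 0.35), Acly (-1.83 ± 0.14), Fasn (-1.12 ± 0.23) and Mlxipl (-0.75 ± 0.13), where 36% of all genes were. Acaca and Gpam were not called, at -0.37 ± 0.18 and 0.22 ± 0.16. Their adjusted p was 0.0428 and 0.0252 for Acaca without E47-/- Dex liver replicate 1 or 2, and 0.0199 for Gpam without E47-/- muscle replicate 3. The median of all genes was 0.19 for WAT and 0.11 for muscle on the same log2 scale, and the labelled tissue coincides with its own library set.

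The same pathway beyond the 10 genes was read from 7 lists of 82 other genes. No list gene was called between the genotypes in any of the 6 experiments (edgeR adjusted p). In Cort liver 17 of the 81 tested were lower and 1 higher at an unadjusted p under 0.05, where 6.06% and 3.78% of all genes were. The suppliers of carbon and NADPH were below 0 in 10 of 10 cases (49.4% of all genes were), with 5 lower at that level. Taldo1 (transaldolase, -0.38 ± 0.08, unadjusted p = 0.00145) and the citrate carrier Slc25a1 (-0.23 ± 0.07, unadjusted p = 0.0134) had the smallest p. Elovl2, the elongase of polyunsaturated chains, was higher (0.59 ± 0.13, unadjusted p = 0.00135) while Elovl1, which acts on saturated ones, was lower (-0.42 ± 0.10, unadjusted p = 0.0028). Among glycerolipid enzymes the acyltransferase gene Agpat3 was lower (-0.31 ± 0.10, unadjusted p = 0.0108), as was Abhd5, the activator of adipose triglyceride lipase (-0.37 ± 0.08, unadjusted p = 0.00086). In Dex liver 4 of 81 were lower (1.91% of all genes), among them Txnip, a glucose-responsive ChREBP target (-0.48 ± 0.13, unadjusted p = 0.00942), and 1 higher (1.17% of all genes), the carboxylesterase gene Ces1d (1.30 ± 0.49, unadjusted p = 0.0344).

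In muscle 15 of 76 list genes were higher and 3 lower at that level, where 2.91% and 1.04% of all genes were. The NADPH enzyme gene G6pdx (0.90 ± 0.20, unadjusted p = 0.0036), Slc25a1 (1.13 ± 0.25, unadjusted p = 0.00319), Dgat1, which completes triglycerides (0.61 ± 0.12, unadjusted p = 0.00174), and hormone-sensitive lipase Lipe (1.00 ± 0.17, unadjusted p = 0.000663) were among the higher ones. Lipe and Cidec are also on the adipocyte marker list. Apob, among the lower ones, is a hepatocyte product, and wild-type muscle replicate 2 held hepatocyte RNA (above). The part of that RNA in the Apob difference was not tested. Of the list genes, 3 of 79 passed in either direction in acute Dex liver, 2 of 82 in untreated liver and 1 of 77 in WAT, where 3.7%, 3.63% and 4.29% of all genes did.

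In treated livers the 13 regulators of SREBP and ChREBP went both ways. With Cort 3 rose and 4 fell in wild type and 4 rose and 3 fell in E47-/-, and with Dex 1 rose and 3 fell in wild type and 2 rose and 4 fell in E47-/- (edgeR adjusted p under 0.05). Insig2, which holds SREBP in the endoplasmic reticulum, rose by 3.80 ± 0.31 and 3.67 ± 0.27 with Dex and by 1.43 ± 0.26 and 0.83 ± 0.25 with Cort, in wild-type and E47-/- livers (edgeR adjusted p = 1.4e-08, 3.8e-09, 0.000353 and 0.0118). Insig1, itself an SREBP target, fell with Cort (-1.34 ± 0.31 and -1.85 ± 0.31) and with Dex in E47-/- (-0.97 ± 0.33), and was not called with Dex in wild type (-0.35 ± 0.38). Of the 10 suppliers of carbon and NADPH, 3 and 5 fell with Cort and 7 and 7 with Dex, and 1 rose, with Dex in E47-/-. Acss2, which makes acetyl-CoA from acetate, fell in all 4 comparisons, with changes between -1.80 ± 0.35 and -2.18 ± 0.39, and so did Idh1, a source of NADPH, with changes between -0.83 ± 0.11 and -1.62 ± 0.14. Hsd17b12, of the elongation cycle, fell in the 4 comparisons too (-0.57 ± 0.11 to -0.96 ± 0.12). Of all 82 list genes 15 rose in each comparison, where 15.7% and 19.7% of all genes rose with Cort and 14.7% and 18.4% with Dex (wild type and E47-/-). With Cort 20 and 24 fell, against 16.2% and 18.3% of all genes, and with Dex 22 and 30, against 15.9% and 18.6%.

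Likeness between the members from mouse to mouse was described last. Over the 24 global livers, after removal of the 6 group means, each gene's log2 CPM was set against the mean of the other 9 standardized members. Pearson's r was 0.96 for Fasn, 0.95 for Acly, 0.90 for Elovl6, 0.86 for Acaca, 0.68 for Scd1, 0.62 for Srebf1 and Thrsp, 0.54 for Acacb, 0.40 for Gpam and 0.29 for Mlxipl. Fasn, Acly, Elovl6 and Acaca thus stood nearest to the rest and Gpam and Mlxipl farthest. Outside the 10, the genes with the highest r with the mean of all members were Nadk (0.80), Idh3b (0.78), Gm35986 (0.78), Slc15a4 (0.77) and Dock6 (0.77). Gm35986 overlaps 0.5% of the exon bases of Elovl6 on the opposite strand, and counts made without strand cannot assign reads from that stretch. Their part in its r was not tested. These values are descriptions over livers that share experiments and animal-number ranges.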

How the data were processed

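RNA from liver, epididymal WAT and quadriceps was sequenced after TruSeq mRNA library preparation, in 39 libraries. Per the methods and the submitters' processing notes, the authors aligned reads with STAR 2.4.2a to mm10 and the processing tools named also include HTSeq and DESeq2. The deposited files give raw counts per Ensembl gene, and the column without strand, the only one common to all libraries, was used here. The files with the authors' own comparisons hold their fold changes and p-values and were not used. Entries that name no gene (20.8 to 36.8% of a library) were left out.

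Symbols and gene coordinates came from GENCODE M21 (GRCm38) and promoters from RefSeq (GRCm38.p6). Each genotype comparison was fitted on its own 2 groups with edgeR 4.0.16 (R 4.3.3), using filterByExpr, TMM, the quasi-likelihood F test (two-sided) and Benjamini-Hochberg adjustment over all genes tested, with a threshold of 0.05. All 10 members passed the filter in each of the 6 experiments. Treatment and tissue contrasts came from joint fits of 24 livers and 14 Dex libraries with a mean per group. The SE is the absolute log2 fold change divided by the square root of F. CPM values use TMM factors over all 39 libraries. The likeness and pairing checks used log2 of CPM plus 0.5. The procedure was tested on simulated data with known changes. The simulation gave every gene the same spread and held no animal-number ranges, so it cannot show performance at the spread of these groups.

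The 10 members and the gene lists were chosen with earlier results of these data known. Named list genes are those past the adjusted threshold, at most 4 per list and direction, otherwise at most 2 per list with the smallest unadjusted p under 0.05, and not all of these are given. Alternatives were RLE size factors, DESeq2 1.42.0, no filter, the strand-specific column, the replicate number or the range of animal numbers as a term, and each replicate left out. A fit of the higher animal-number range of Cort livers was added after seeing the data. Libraries of a group differed by more than counting noise in all 53 replicate pairs (chi-square per degree of freedom 15.9 or more). The labels give them as separate mice, so p-values measure the spread between animals, and counting error is covered only as part of it.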

Additional observations from a re-analysis of the deposited data

Results flagged for a closer look

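Among 40 tests of a member in a group of 4 or more livers, a test for a single distant value picked out 3, and chance alone picks about 1 in 20. Acacb was 50.8 CPM in untreated wild-type replicate 5, the lowest of its 5. Scd1 was 10284 CPM in Cort-treated wild-type replicate 4, the highest of its 4. Thrsp was 172 CPM in Cort-treated wild-type replicate 3, again the highest of its 4. The first of these livers belongs to the animal-number range of untreated mice in which Scd1 was also low, at 1680.1 to 3010.3 CPM.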

How the results depend on the processing

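The main edgeR fits called 0 members between the genotypes in each of the 6 experiments. In Cort liver DESeq2 called 2 (Acacb and Gpam), and the fit with a replicate block and the fit with the animal-number range each called 1 (Acacb, log2 -1.26 and -1.18, adjusted p = 0.048 in both). Those fits called 1.05%, 0.199% and 0.459% of all genes, against 0.0274%. In WAT DESeq2 called 1 (Mlxipl, with 0.144% of all genes), and leaving out each replicate gave 0 to 1. In muscle DESeq2 called 1 and the fit without a filter 1 (Thrsp, adjusted p = 0.0367), with 0.359% and 0.148% of all genes. Replicate numbers were treated as names, since in no experiment did every same-numbered pair correlate above 0.1 (Cort -0.01 to 0.74, untreated 0.06 to 0.82, where 5 of 8 and 3 of 10 libraries correlated best with their own number), and the block changed no other member count.

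Differences near 0 changed sign. Srebf1 in Cort liver (0.02) became 0.00 by the strand column (the larger strand column of the Cort libraries held 50.1% of their strand counts, so it is a part of the same reads and no check of strand), -0.02 with the replicate block, -0.14 with the animal-number range and -0.31 in the higher range alone, and spanned -0.28 to 0.22 with each replicate left out. Fasn in untreated liver became 0.01 with the animal-number range. With replicates left out, Fasn in WAT spanned -0.18 to 0.70, Srebf1 in muscle -0.63 to 0.06, Scd1 under Cort in wild type -0.38 to 0.12 and Gpam under Dex in wild type -0.01 to 0.32. Members called with replicates left out were 6 to 7 and 8 to 10 for Cort, 6 to 8 and 7 to 8 for Dex (wild type and E47-/-), 7 to 10 for WAT and 8 to 9 for muscle.

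Over all genes the counts called depended on the method. They were 1 in Dex liver (0 to 62 over the other fits), 4 in Cort liver (1 to 263), 0 in acute Dex liver (0 to 6), 4 in untreated liver (2 to 21), 0 in WAT (0 to 38) and 2 in muscle (1 to 90). With 1 library left out they were 0 to 7, 1 to 6, 0 to 1, 3 to 4, 0 to 333 and 1 to 8 in the same order. In WAT 333 genes were called without E47-/- replicate 3 and 19 without E47-/- replicate 2. The cause of these changes was not tested. With 2 or 3 mice in several groups, small differences could not be detected.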

Other observations

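Genes for storing triglycerides went both ways in treated livers, where 14.7% to 19.7% of all genes rose and 15.9% to 18.6% fell. Of the 10 lipid droplet genes 4 and 3 rose with Cort and 4 and 4 with Dex in wild type and E47-/-, while 1 and 1 and 1 and 2 fell, with median log2 changes of 0.62, -0.07, 0.57 and 0.08. Of the 16 other glycerolipid enzymes 4 and 4 rose with Cort and 4 and 2 with Dex, and 1, 2, 2 and 2 fell, with medians of 0.06, -0.09, -0.20 and -0.13. In wild-type and E47-/- livers the lipid droplet gene Plin5, which links droplets to mitochondria, changed by 2.26 ± 0.34 and 1.79 ± 0.29 with Dex and by 1.72 ± 0.29 and 1.39 ± 0.27 with Cort on the log2 scale, all past an edgeR adjusted p of 0.05. Plin3 changed by 1.78 ± 0.15 and 1.43 ± 0.13 with Dex and by 0.94 ± 0.12 and 0.70 ± 0.12 with Cort. Cidec, which enlarges droplets, rose with Dex (3.35 ± 0.78 and 1.88 ± 0.67) and was not called with Cort (1.54 ± 0.67 and -0.08 ± 0.64). Fitm1, known chiefly from muscle, fell with Dex (-3.91 ± 0.90 and -2.33 ± 0.65), where the median of 10 skeletal muscle markers was -3.36 and -2.59. The part of muscle RNA in the Fitm1 change was not tested. Of the glycerolipid genes, glycerol kinase (Gyk) rose by 1.45 ± 0.27 and 1.42 ± 0.23 with Dex and by 1.29 ± 0.23 and 0.74 ± 0.21 with Cort, and Agpat3 rose in the same 4 comparisons (0.51 ± 0.09 to 0.96 ± 0.11), while Gpat4 fell in them (-0.57 ± 0.18 to -0.86 ± 0.23).

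Of 10 other known targets of SREBP-1c and ChREBP 2 rose in each comparison, while 3 and 2 fell with Cort and 4 and 5 with Dex. The fasting-related hormone gene Fgf21 rose in all 4 comparisons, with log2 changes of 5.03 ± 0.62 and 3.12 ± 0.53 with Cort and 5.06 ± 0.67 and 3.78 ± 0.56 with Dex. Pklr, the liver pyruvate kinase, fell with Dex (-1.80 ± 0.40 and -1.97 ± 0.34) and was not called with Cort (-0.72 ± 0.29 and -0.45 ± 0.28). Treatment cannot be told apart from experiment, fasting and time of killing in these comparisons.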
